A study of Mus musculus with 4 samples.

Results

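Genes that carry and activate thyroid hormone were examined in a map of chromatin recovered from mouse striatum with the thyroid hormone receptor TRα1 bearing a GS tag. The 6 genes are Dio1, Dio2, Slc16a10, Slco1c1, Crym and Ttr, out of 21883 protein-coding genes of the RefSeq GRCm38.p6 annotation. A peak was assigned to a gene when its summit, the base of highest fragment stacking, lay in the gene's span or within 30 kb of either end. By this rule 1 of the 7484 peaks of the list belonged to the 6 genes. It lay at Dio1 and inside the span of another gene.

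The series compared 3 immunoprecipitated (IP) fractions of striatum with 1 input. All libraries came from animals that, per the title, carry Gad2-Cre, a Cre driver of GABAergic neurons, together with a Thra-GS allele. The IP fractions were taken on IgG-coated magnetic beads, and the input had no antibody. Age, sex, number of animals and hormone status are not given in the sources used here. A library without the tag was not analysed here, so recovery through the receptor and unspecific recovery by the beads cannot be told apart. The peak list has no value per library, so there is no spread between fractions, and the intervals below cover counting error only.

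Thyroid hormone circulates mainly as thyroxine (T4), and the nuclear receptors bind mainly its product triiodothyronine (T3). Carriers and membrane transporters bring both forms to the cell, and deiodinases remove iodine from them, which activates T4 or inactivates T4 and T3. In brain, T4 entering through the blood-brain barrier is largely converted to T3 in glia and then passes to neurons.

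Dio1 and Dio2 encode the activating deiodinases, and no summit lay in the runs of bases before their transcript starts. Such an absence is common and sets neither gene apart. Of all protein-coding genes, only 19.1% had a peak in a 5 kb window and 13.7% in the span alone. Both runs are from RefSeq on GRCm38.p6, minus strand, and end at the base before the start, Dio1 at chr4:107307169-107307418 and Dio2 at chr12:90739039-90739288. Capitals mark TGACGTCA, the letters of the cAMP response element, and TATAAA, the letters of the TATA box.
Dio1: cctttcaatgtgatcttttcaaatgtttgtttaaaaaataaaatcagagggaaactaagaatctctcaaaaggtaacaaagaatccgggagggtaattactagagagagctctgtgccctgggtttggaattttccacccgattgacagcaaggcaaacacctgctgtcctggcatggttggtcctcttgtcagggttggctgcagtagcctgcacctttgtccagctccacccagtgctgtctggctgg
Dio2: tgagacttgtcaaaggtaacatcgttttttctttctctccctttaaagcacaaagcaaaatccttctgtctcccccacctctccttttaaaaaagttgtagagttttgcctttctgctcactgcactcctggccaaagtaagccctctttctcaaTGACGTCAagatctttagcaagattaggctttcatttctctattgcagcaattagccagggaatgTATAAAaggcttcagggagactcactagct

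In Dio2 the cAMP response element letters begin 95 bases before the start and the TATA letters 30 bases before it, and the Dio1 run holds neither. TGACGTCA is present in 1.79% of the 32851 promoter windows of 300 bases, and TATAAA on either strand in 13.6%. The receptor's half-site was searched as AGGTCA or GGGTCA on both strands of each window, 250 bases before to 50 after the start. None of the 4 genes with a promoter entry, Dio1, Dio2, Slc16a10 and Slco1c1, held a half-site, as was the case for 72.5% of all windows. A direct repeat of AGGTCA with 4 bases between the copies (DR4) was searched on both strands with at most 2 mismatches over its 12 set letters, and each match can overlap a half-site. It was in 3.02% of all windows and in none of these 4, whose best matches had 4 mismatches in Dio1, Slc16a10 and Slco1c1 and 5 in Dio2. These are letter matches in short windows and say nothing of sites elsewhere. Crym and Ttr had no entry.

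Dio1 encodes the type 1 deiodinase, which converts T4 to T3 and is best known from liver, kidney and thyroid. The gene spans chr4:107291465-107307168 on the minus strand. Its peak, at chr4:107274540-107274795, was 256 bp wide with a summit at 107274647. The summit was 16818 bp beyond the 3' end of Dio1 and 32.5 kb from its transcript start. No summit lay inside Dio1 or before its start within the window. The deposited pileup, a scaled number of fragments covering the summit, was 16.9, equal to 18 fragments (95% exact Poisson interval 10.7 to 28.4). The deposited fold enrichment was 6.20 (3.81 to 9.59 from the fragment count, with the background taken as fixed). The list gives no background. It was worked back from pileup and fold as 1.89 in pileup units, taking the fold as (pileup + 1) over (background + 1). The deposited −log10 q was 7.13.

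That fold was below the list's median of 6.91, with quartiles of 5.55 and 9.73. Of all peaks, 61.8% had a higher fold and 73.96% a higher pileup, while its width was near the median of 260 bp. The summit lay in the span of Hspb11, the gene of an intraflagellar transport protein, which runs on the plus strand from 107253593 to 107284497. It was 20955 bp from the Hspb11 transcript start. The peak also fell in the 30 kb window of Lrrc42, a gene of a leucine-rich repeat protein, at 21114 bp from that gene. Thus 3 protein-coding genes shared it, and 16.3% of all peaks fell in the windows of 3 or more. When each summit counted only for the protein-coding gene with the nearest span, it went to Hspb11 and Dio1 had none. Of the 7095 protein-coding genes with a peak in their 30 kb window, 2978 (42.0%) were likewise the nearest gene to no peak of the list, at any distance. Genes nearest only to a peak beyond their window are not in this count.

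A total of 3 further peaks lay within 100 kb of Dio1, all outside the 30 kb window. The nearest of them, at 46.7 kb, was a peak at chr4:107244610-107244894. It had a fold of 6.59 (4.43 to 9.47) and lay in the span of Lrrc42, 8772 bp from that gene's start. At 61.0 kb before the Dio1 start, a peak of 8.15 (5.34 to 11.95) lay 99 bp inside Ndc1, a nuclear pore protein gene, from its start. At 88.2 kb a peak of 8.47 (5.65 to 12.3) was 2265 bp from the 3' end of Tmem59, a membrane protein gene. The 4 intervals, which take the background as fixed, overlapped, and the order of the 4 peaks by fold was not tested. Each of the 4 summits was nearer to another protein-coding gene than to Dio1.

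**Figure D1:**
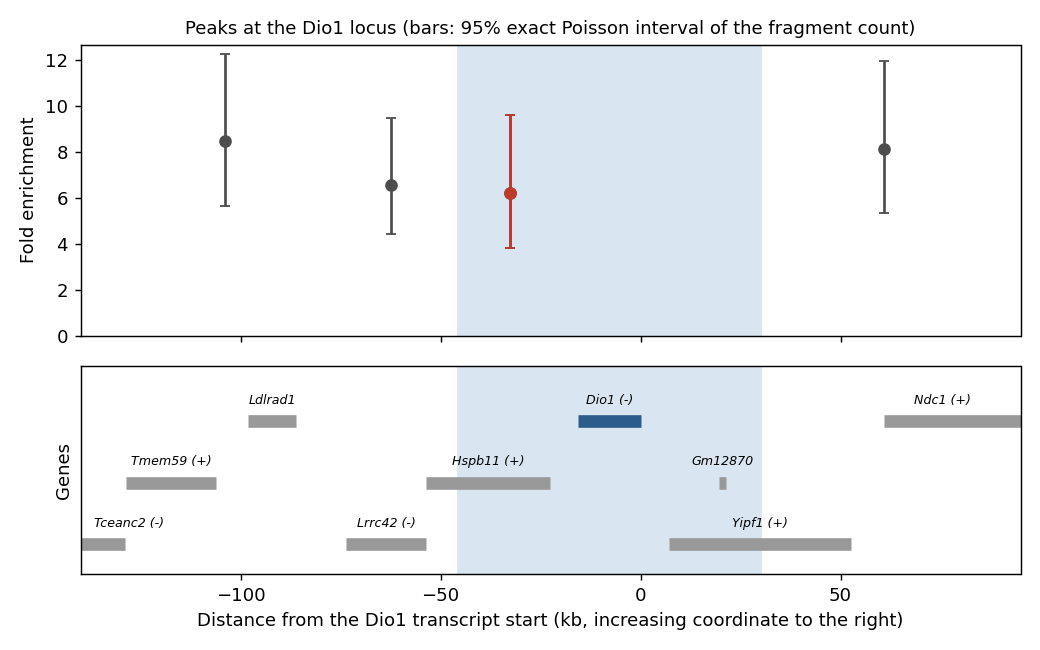
Fold enrichment of the 4 peaks within 100 kb of Dio1 (points, with 95% exact Poisson intervals of the fragment count) against distance from the Dio1 transcript start in kb, above the RefSeq genes with their strands where known. The shaded band is the Dio1 span with 30 kb on both sides. Its single peak, in red with a fold of 6.20, falls on Hspb11.

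Dio2 encodes the type 2 deiodinase, the main activating enzyme of the brain, known there from astrocytes and tanycytes. The gene spans chr12:90724552-90739038 and had no peak within 30 kb or 100 kb. Its nearest summit was 321 kb above its transcript start, in Cep128, a centriole protein gene. That peak had a pileup of 16.9 and a fold of 4.48 (2.75 to 6.93). On the other side the nearest summit was 858 kb away in Nrxn3, the neurexin 3 gene, with a fold of 3.76 (2.09 to 6.34). Both values were in the lowest quartile of the list. Dio2 was the only protein-coding gene wholly within this gap of 1.19 Mb, and only 2 other protein-coding genes lay within 500 kb of it, against a median of 16 for all protein-coding genes. The non-coding gene Gm26512 overlaps its start and had no peak either.

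The transporter genes also had no peak in their windows. Slc16a10 encodes MCT10, a carrier of aromatic amino acids that also moves T3 and T4. With 109 kb it is the longest of the 6 genes, at chr10:40033532-40142270, and no summit lay within it. The nearest summits were 408 kb below it in Traf3ip2, with a fold of 6.59 (4.16 to 10.002), and 569 kb above it in Mettl24, with a fold of 6.45 (4.78 to 8.53). The latter stood on a pileup of 44.1, or 47 fragments. In the gap of 1.09 Mb between them lay 11 other protein-coding genes, among them Mfsd4b1 at 8.26 kb from Slc16a10.

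Slco1c1 encodes OATP1C1, a T4 transporter of brain endothelium and astrocytes. It lies at chr6:141524354-141570177, on the plus strand. Its nearest summit was 410 kb above the gene, in Gm6614, with a fold of 7.93 (5.24 to 11.5). Below it the nearest was at 793 kb with a fold of 5.49 (3.34 to 8.60). The neighbouring phosphodiesterase gene Pde3a, 17.5 kb away, had no peak within 30 kb of its own span. The gap of 1.25 Mb held 5 other protein-coding genes.

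Crym encodes mu-crystallin, a cytosolic protein that binds T3 and is known from striatal cells. The gene, at chr7:120186380-120201989, had the largest distance of the 6 to its nearest summit. That summit was 476 kb above it in Mosmo, with a fold of 8.78 (5.90 to 12.6). On the other side a peak of 9.23 (6.37 to 13.0) in Gpr139, an orphan receptor gene, was 1039 kb away. Unlike the gap at Dio2, this gap of 1.53 Mb held 25 other protein-coding genes. The adjoining genes Abca14, at 1.94 kb, and Anks4b, at 2.66 kb, had no peak within 30 kb either.

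Ttr encodes transthyretin, the T4 carrier of plasma and cerebrospinal fluid, made in liver and choroid plexus. The gene lies at chr18:20664209-20674326. A peak 141 kb above it had a pileup of 13.2, or 14 fragments, and a fold of 4.72 (2.73 to 7.68), and was 2.27 kb from Trappc8. Below Ttr no summit followed for 4365 kb, and the gap of 4.52 Mb was the widest at the 6 genes. A wider gap between summits held 3.19% of all protein-coding genes, against 18.4% for the gap at Crym and 23.1% for that at Dio2. Genes with no summit on one side were counted in no gap. The neighbouring gene B4galt6, 10.3 kb away, had no peak within 30 kb.

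**Figure D2:**
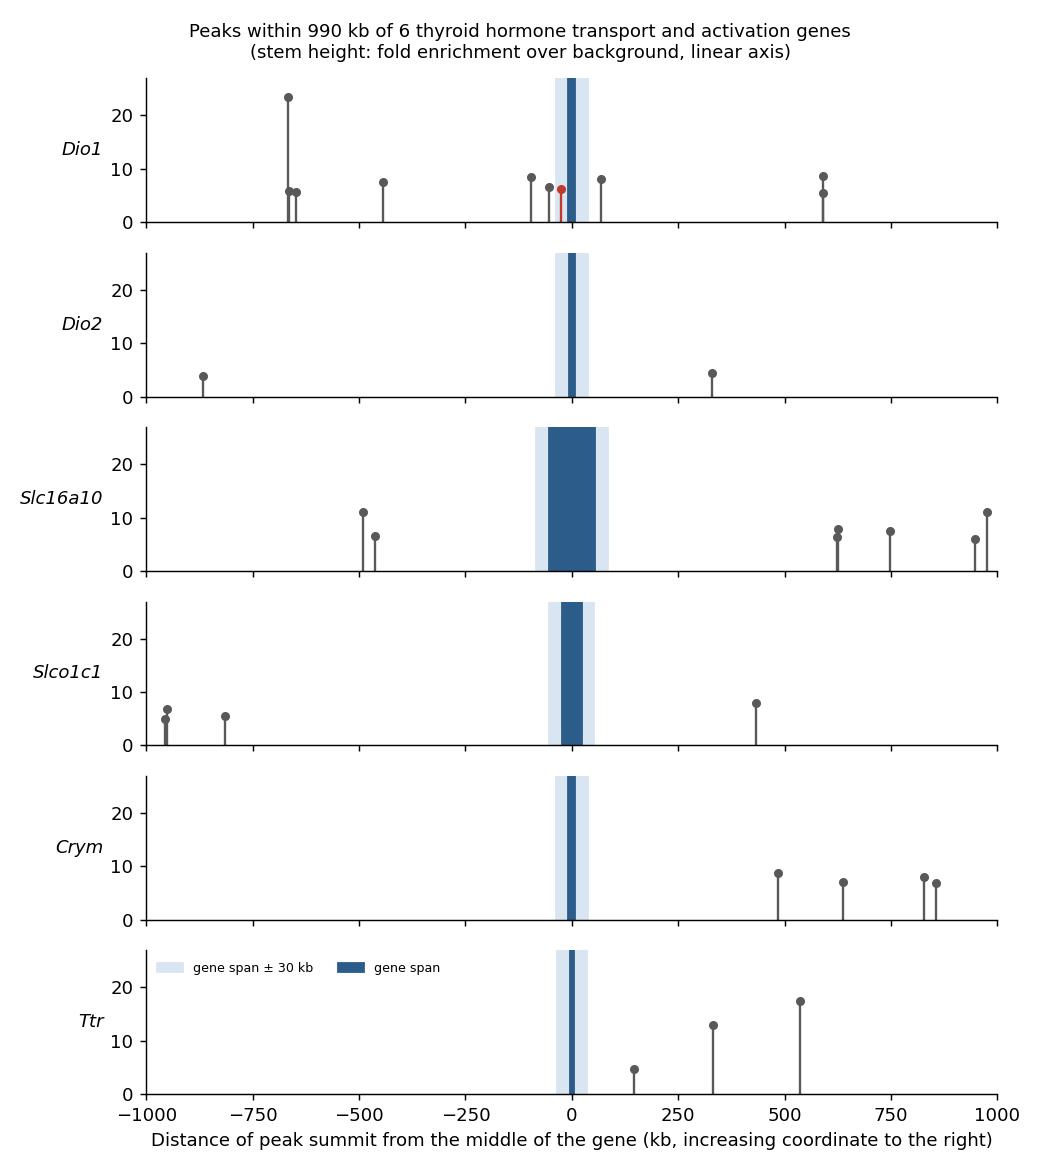
Peaks within 990 kb of each of the 6 genes. The horizontal axis gives the distance of each summit from the middle of the gene in kb, the stem height the fold enrichment, dark bands the gene span and light bands the 30 kb on both sides. The only stem inside a light band is at Dio1, in red.

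Set against the whole annotation, 1 of 6 genes with a peak compares with 32.4% of protein-coding genes called by the same rule, and with so few genes no difference from that share can be read. Other rules called 19.1% of protein-coding genes in a 5 kb window, 13.7% in the span alone, 20.4% with a −log10 q of at least 10, 19.5% with peaks above the median fold and 18.8% by nearest span, and 0 of the 6 genes in each. The share by nearest span is an upper limit. It takes in genes with a peak in the window that are nearest only to a peak beyond it. A window of 100 kb called 54% and any overlap of peak and window 32.5%, and Dio1 alone of the 6 in both. The 6 windows together covered 570 kb, in which the autosomal density of 3.04 summits per Mb would place 1.73 summits. The 1 summit found gives 1.75 per Mb, with an exact Poisson interval of 0.0444 to 9.77. With 1 summit this interval is too wide to compare with the autosomal value, which also takes in regions far from genes. Beyond 100 kb from any summit lay 5 of the 6 genes and 46% of all protein-coding genes. The distance to the nearest summit had a median of 364 kb for the 6 genes and 82.0 kb for all protein-coding genes. A nearer summit than at Crym was found for 85.6% of protein-coding genes, than at Slco1c1 for 83.4%, at Slc16a10 for 83.3%, at Dio2 for 79.0% and at Ttr for 61.8%. For Dio1 the value was 26.0%. Gaps of over 1 Mb between summits enclosed 5 of the 6 genes and 27.3% of protein-coding genes. The shares over all protein-coding genes take in the sex chromosomes, whereas the 6 genes are autosomal. On the X chromosome 7.87% of protein-coding genes had a peak in the 30 kb window, against 34.0% on autosomes. None of these comparisons was tested, since the genes are few and were chosen with earlier results known.

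**Figure D3:**
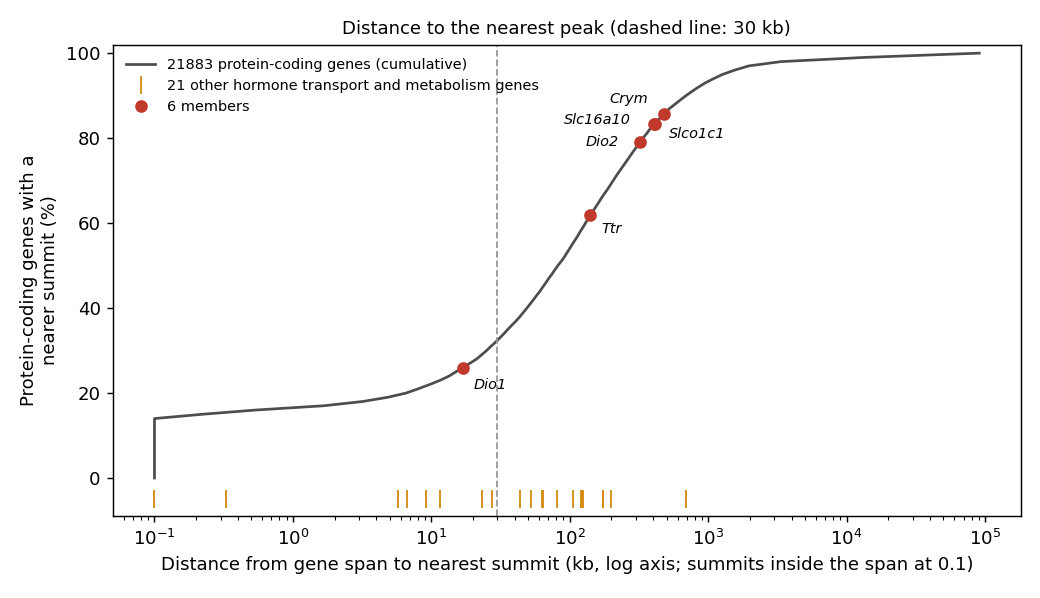
Distance from the gene span to the nearest summit in kb (log axis) against the percent of protein-coding genes with a nearer summit. The line is the cumulative share of 21883 protein-coding genes, red points are the 6 genes and orange ticks 21 other hormone transport and metabolism genes. Of the red points, all but Dio1 lie to the right of the dashed line at 30 kb, while 8 of the 21 ticks lie to its left.

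The numbers in the peak names show whether numbered peaks of these regions are lacking from the list as used here. Peaks lost before the numbering would leave no skipped number and cannot be seen this way. Numbers follow position along every chromosome in 100% of neighbouring peaks, and 169 of the numbers up to 7653 have no peak. Between the peaks that flank each of the 6 windows no number was skipped, so none of the missing numbers belongs to these gaps. The lowest pileup in the list was 9.39, or 10 fragments, and the lowest −log10 q was 1.37, not necessarily at the same peak. At the 5 genes without a peak no enrichment was called in this list, which does not show that the receptor is absent there. Signal below the calling threshold was not examined.

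Other genes that handle the hormone gave a mixed picture, with a peak in the window of 8 of 21 (38.1%, against the same 32.4%). Dio3, the inactivating deiodinase, had peaks of 11.6 (8.20 to 16.03) at 9163 bp and 8.94 at 27906 bp, both nearer to Dio3 than to any other protein-coding gene. Among transporters, Slc7a8, which encodes the LAT2 amino acid carrier, had a peak of 4.72 (2.73 to 7.68) 326 bp before its start. Slco3a1, an organic anion transporter gene, had peaks of 6.91 and 5.78 inside its span. Slc17a4, another transporter gene, had a peak of 4.94 at 11.6 kb, nearer to a histone gene. Slc7a5 and Slc3a2, which encode the subunits of the LAT1 amino acid carrier, had their nearest summits at 63.6 kb and 62.7 kb.

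The other 4 of these 8 genes had their peaks inside a neighbour. The strongest, 13.1 (9.73 to 17.4) at 23.3 kb from the sulfotransferase gene Sult1a1, lay in Sgf29. Secisbp2, needed for selenoprotein synthesis and so for deiodinases, had 6.12 in Sema4d. Sephs2, of selenium metabolism, had 7.50 in Zfp771. Usp33, a deubiquitinase gene known for acting on the type 2 deiodinase, had 7.22 and 3.77 in Miga1. With summits counted for the nearest gene alone, Slc7a8, Slco3a1 and Dio3 remained, 3 of 21, against at most 18.8% of all protein-coding genes. Those without a peak also included Slco1a4, Slco2b1, Slco4a1, Slc10a1, Iyd, Alb, Serpina7, Usp20, March6 and Wsb1.

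Genes of hormone synthesis in the thyroid gland had a peak in 2 of 10 windows, against 32.4% of all protein-coding genes by the same rule. At Duox1, an oxidase gene, a peak of 12.7 lay 627 bp from the gene but 293 bp from Shf. At Pax8 a peak of 3.54 lay inside Psd4. Because Dio2, Slco1c1 and Ttr are known from non-neuronal cells, marker genes of such cells were counted in the same way. These counts too stand beside 32.4% of all protein-coding genes, and with 6 or 8 genes a list no difference from that share or between lists was tested. Astrocyte markers had a peak at 0 of 6, and all 6 lay beyond 100 kb from a summit, as did 46% of all protein-coding genes. Beyond that distance lay also 3 of 8 choroid plexus markers, 1 of 6 brain endothelium markers and 1 of 6 striatal neuron markers. Choroid plexus markers had a peak at 1 of 8, with 6.30 inside Kl. Brain endothelium markers had a peak at 2 of 6, near the share over all genes, with 5.48 inside Flt1 and 5.03 near Abcb1a but inside Rundc3b. Striatal neuron markers had a peak at 5 of 6, namely Drd2 at 19.2, Gad2 at 18.8, Ppp1r1b at 10.1, Drd1 at 6.79 and Gad1 at 5.22, and Adora2a had none. The marker lists were chosen with earlier results of these data known, so these counts are not read as a difference between cell types. Expression was not measured here, and the part of cell type in the distances at the 6 genes was not tested.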

How the data were processed

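Chromatin of 1 input and 3 IP fractions was sequenced on the Ion Proton system, per the labels' protocols. The submitters' processing notes name Bowtie2 2.3.4.2, MACS2 2.1.1.20160309.0, GRCm38 and mm10, with no settings. The sources used here do not say whether fractions were pooled for the calls. The authors deposited 1 peak list with the pileup signal at each summit, the fold enrichment as a linear ratio, and −log10 q, per the file headers. Pileups lay on a grid with a step of 0.939, from which fragment numbers were recovered. The background at each peak was not in the list and was worked back from its pileup and fold. Depth per library was not used here.

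Summits were placed against gene spans of a RefSeq table of GRCm38.p6, the build of mm10, in Python 3.11.15 with pandas 2.3.3, and exact Poisson intervals at 95% came from scipy 1.17.1. The placement was tested on simulated summits. Of the 57 genes in the lists, all matched by symbol but March6, found as Marchf6 through its synonyms. An item of these lists is not reported here by name. Strand and transcript starts came from the RefSeq promoter table, which held 4 of the 6 genes, without a genome sequence. Members, lists and motifs were chosen with earlier results of these data known. All 6 genes, genes sharing their peaks and list members with a peak were named by rule. Genes at the flanking peaks, adjoining genes and the cAMP response element and TATA letters were chosen after their values were seen. With 1 list and no value per library no test was possible, and genes alike in pattern were not sought. Alternatives changed the window, the peak threshold, overlap in place of summit, and assignment to the nearest gene.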

Additional observations from a re-analysis of the deposited data

How the results depend on the processing

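The count of 1 gene of 6 with a peak rests on the single summit near Dio1. It became 0 with a window of 5 kb, with the gene span alone, under a −log10 q minimum of 10, with peaks above the median fold, and with summits counted only for the nearest protein-coding gene. It stayed at 1 with any overlap of peak and window and with a window of 100 kb. The number of peaks at the 6 genes was 0 in the same settings of window, span and threshold and rose to 4 at 100 kb, all at Dio1. Other hormone transport and metabolism genes with a peak numbered 8 of 21 (in brackets the share of all protein-coding genes by the same rule, 32.4%). They numbered 2 with 5 kb (19.1%), 13 with 100 kb (54%) and 1 with the span alone (13.7%). Under the −log10 q minimum of 10 they were 4 (20.4%), and above the median fold 4 (19.5%). The strongest fold at Dio1 was 8.47 within 100 kb, inside the interval of the nearer peak. Under that q minimum the nearest summit was at 46.7 kb for Dio1, 327 kb for Ttr and 1040 kb for Dio2. No paired analysis was possible because the list has no value per library and the input has no replicate number.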
